A study of Mus musculus with 10 samples.

Results

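The 41 genes described here are induced by type I interferon and include the classical antiviral effectors, and they were followed in obstructed mouse kidneys, in which 1 ureter had been tied for 10 days (unilateral ureteral obstruction) and the kidney above it becomes inflamed and scars. They were chosen by name, with earlier results of these data known, and all 41 were found among the 54532 genes of the deposited table. Messenger RNA was sequenced in 5 libraries labelled Padi4 knockout (KO1 to KO5) and in 5 libraries labelled wild type (WT1 to WT5). Padi4 encodes peptidylarginine deiminase 4, which citrullinates histones and contributes to the chromatin webs (extracellular traps) that neutrophils release. All 10 libraries came from obstructed kidneys, so no unobstructed level is analysed here. The sources used here do not give the deleted exons, the strain, the age or whether each library is a separate animal. The p-values reflect the spread among these libraries alone, which may be technical in part. KO and WT stand for the labels below, and n counts libraries.

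Type I interferons are secreted when cells sense foreign or misplaced nucleic acid, and bind a receptor found on nearly all cells. The receptor's kinases JAK1 and TYK2 phosphorylate STAT2, which acts with IRF9 in the complex ISGF3. This complex binds the interferon-stimulated response element (ISRE) in the promoters of target genes, whose products block viral entry, translation, replication and release. Many of these genes have a basal level in tissue without infection, and macrophages and kidney epithelium both express them.

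The ISRE core was visible in the promoters of many of the 41 genes. RefSeq promoters of the GRCm38.p6 build, 300 bases from 250 before to 50 after each start, were matched by symbol for 31 of the 41 genes, as 35 promoters. The core searched was GAAANNGAAA, which reads TTTCNNTTTC on the other strand. It was found in 16 of the 35 promoters (45.7%), belonging to 15 genes, against 1131 of all 32851 promoters (3.44%). The core of the gamma-activated site, TTCNNNGAA, which reads the same on both strands, was found in 7 of the 35 promoters (20.0%), against 8.30% of all promoters. A match is a description of these letters and not a measured binding site. The 60-base stretches below lie before the start sites of genes whose levels are given further on, with every ISRE core in capitals, from 5′ to 3′ on the strand of the gene. Isg15, Ifit1 and Oas1a show overlapping or repeated cores in textbook antiviral genes. Stat2, Trim30a and Rsad2 show a single core in a signalling gene, a ubiquitin ligase gene and an antiviral enzyme gene. Ifit3 and Ifit3b show how alike 2 neighbouring copies are, with 60 of 60 bases identical. The core reads GAAANNGAAA on the strand of the gene in Isg15 and Oas1a, and TTTCNNTTTC in all the other stretches.
Isg15 (chr4:156200850-156200909, minus strand): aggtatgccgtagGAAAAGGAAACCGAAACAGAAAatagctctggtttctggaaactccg
Ifit1 (chr19:34640779-34640838, plus strand): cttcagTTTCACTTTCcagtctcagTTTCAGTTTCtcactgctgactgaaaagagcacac
Ifit3 (chr19:34583382-34583441, plus strand): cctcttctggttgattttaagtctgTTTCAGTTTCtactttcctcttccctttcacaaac
Ifit3b (chr19:34607778-34607837, plus strand): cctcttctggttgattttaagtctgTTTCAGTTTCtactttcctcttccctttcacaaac
Oas1a (chr5:120907526-120907585, minus strand): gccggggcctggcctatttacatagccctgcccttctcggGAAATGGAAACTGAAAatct
Rsad2 (chr12:26456538-26456597, minus strand): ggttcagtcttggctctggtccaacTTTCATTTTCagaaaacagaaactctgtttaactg
Stat2 (chr10:128270251-128270310, plus strand): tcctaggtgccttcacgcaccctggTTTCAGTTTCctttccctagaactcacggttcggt
Trim30a (chr7:104465195-104465254, minus strand): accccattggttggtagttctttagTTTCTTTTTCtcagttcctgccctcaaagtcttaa

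The libraries held 15002922 to 16886945 reads in genes, and 1 of them stood apart. Padi4 itself averaged 0.256 ± 0.164 FPKM in KO and 0.358 ± 0.183 FPKM in WT kidneys (SD, n = 5 each), where FPKM is reads divided by gene length and by the scaled library total. This rested on 6 to 47 reads per library and did not differ beyond the spread (mean log2 difference -0.11, exact two-sided permutation p = 0.373, smallest possible 0.00794), so Padi4 does not check the labels. The kidney label was matched by nephron genes: the 8 proximal tubule markers, all of which had reads, summed to 4979 to 7417 FPKM in KO and to 3471 to 17406 FPKM in WT kidneys, with the highest sum in WT1. The 10 macrophage markers, also none at 0, summed to 958 to 1184 FPKM in KO1 to KO5, 585 FPKM in WT1 and 1069 to 1168 FPKM in WT2 to WT5, and each of the 10 had its lowest WT value in WT1. Genes of the mitochondrial genome took 8.11% of reads in WT1 and 3.18% to 5.79% in the other 9 libraries. WT1 is therefore shown apart below, and the main results are given with and without it.

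**Figure D1:**
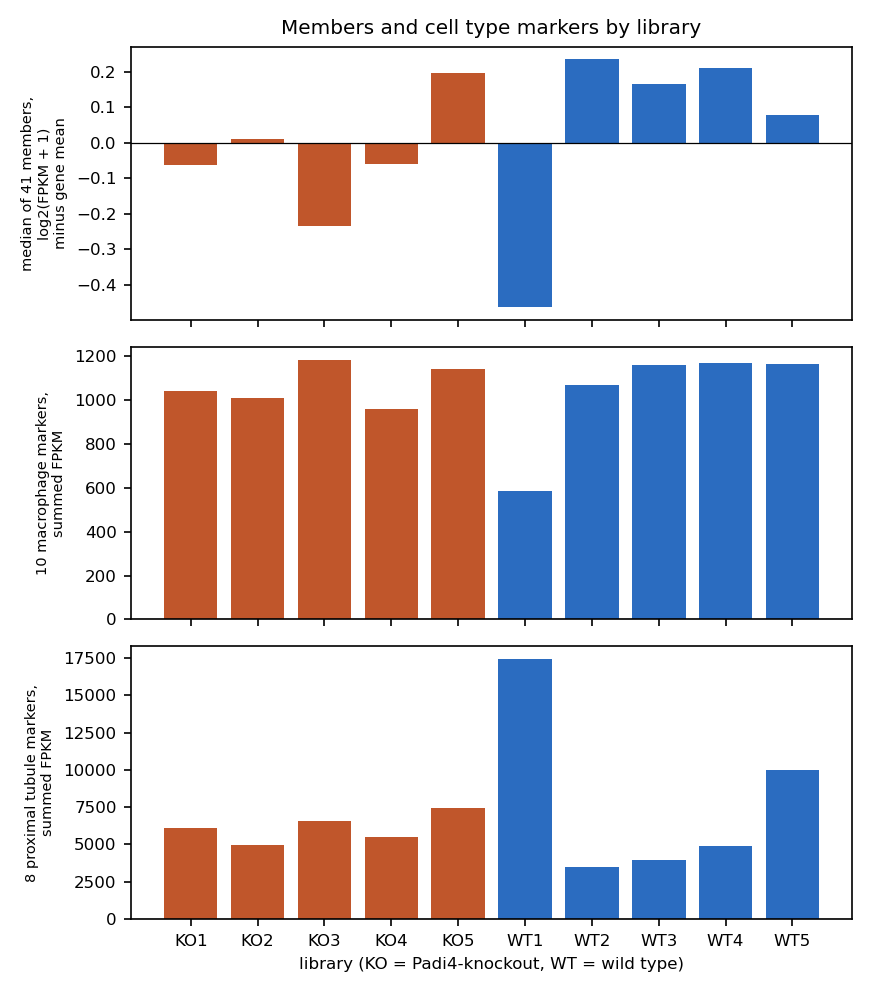
Bars show, for each library (KO left, WT right), the median over the 41 genes of log2(FPKM + 1) minus each gene's mean over the 10 libraries (top), the summed FPKM of 10 macrophage markers (middle) and that of 8 proximal tubule markers (bottom). WT1 has the lowest value in the top panel (-0.46) and middle panel (585 FPKM) and the highest in the bottom panel (17406 FPKM).

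No antiviral gene passed the test for a difference between KO and WT kidneys. Of the 41 genes, 38 reached a mean of 1 FPKM and were tested, and Ddx60, Oas3 and Mx2 did not. None of the 38 passed limma with Benjamini-Hochberg adjustment over all 13435 genes tested, at a threshold of 0.05, and over all genes the share called was 0.0%. At an unadjusted p under 0.05 there were 544 of all genes, with either direction, and limma-voom on the recovered reads called no gene and gave 529 at that level. At an unadjusted p under 0.05, 2 of the 38 had lower values in KO (Dtx3l and Parp14), beside 269 of all genes tested (2.0%) with lower values, and limma-voom gave 3 members at that level. Values were lower in KO for 27 genes and higher for 11. The median log2 difference, KO minus WT on log2(FPKM + 1), was -0.07, against 0.01 over all genes tested. For no member was every KO library below every WT library, a pattern shown by 61 of all genes (0.454%).

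The library WT1 moved these counts. It held the lowest WT value for 40 of the 41 genes and the lowest of all 10 libraries for 29, so that all 5 KO libraries lay above it for these same 29. Over all genes tested, WT1 held the lowest WT value for 25.3% and the lowest of all 10 libraries for 17.2%. Per gene, the WT1 level was 0.379 to 0.905 times the mean of WT2 to WT5, with a median of 0.539. Without WT1, again no gene passed the threshold (0.0% of all genes, smallest adjusted p among the members 0.484 by limma with Benjamini-Hochberg adjustment). Then 33 of the 38 had lower values in KO and 5 had higher ones, with a median log2 difference of -0.21 against 0.01 over all genes. An unadjusted p under 0.05 was reached by 11 members, all with lower values in KO, beside 447 of all genes (3.33%) with lower values. For Trim30a, Dtx3l, Parp9 and Parp14 every KO library was then below every WT library, beside 189 of all genes (1.41%), and for no member was it above. The 41 genes share their libraries and tend to be high or low together, so these counts are not 41 separate observations, and leaving out the lowest WT library raises the WT mean of nearly every member by construction.

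Among the other libraries, KO3 held the lowest KO value for 25 of the 41 genes and KO5 the highest for 22. The median deviation of the 41 genes from their means was -0.06, 0.01, -0.23, -0.06 and 0.20 in KO1 to KO5, against -0.46, 0.24, 0.17, 0.21 and 0.08 in WT1 to WT5, on log2(FPKM + 1). So KO5 lay within the range of WT2 to WT4. KO1 to KO4 were each lower than every WT library except WT1, and KO3 was the lowest of them. Over the 10 libraries, the highest value of a gene was 1.28 to 11.2 times its lowest, with a median of 2.29. The 9 plasmacytoid dendritic cell markers, none at 0 in all libraries, summed to 16.3 to 43.3 FPKM in KO1 to KO5, 12.7 FPKM in WT1 and 20.6 to 35.5 FPKM in WT2 to WT5. Only 3 of these 9 reached a mean of 1 FPKM. The 10 neutrophil markers summed to 5.87 to 12.7 FPKM in KO and to 12.9 to 18.3 FPKM in WT kidneys, with Ly6g on 3 reads in KO and 9 reads in WT libraries and Mpo on 2 reads in KO and 4 reads in WT libraries. The 5 fibroblast markers summed to 415 to 854 FPKM in KO and to 376 to 637 FPKM in WT kidneys. The 4 fat cell markers summed to 0.865 to 46.2 FPKM in KO and to 0.987 to 17.3 FPKM in WT kidneys. Both sums were highest in KO5. The part of macrophages, tubule cells and these other cells in the member values was not tested. In bulk tissue, fewer cells of a type and less RNA per cell cannot be told apart.

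**Figure D2:**
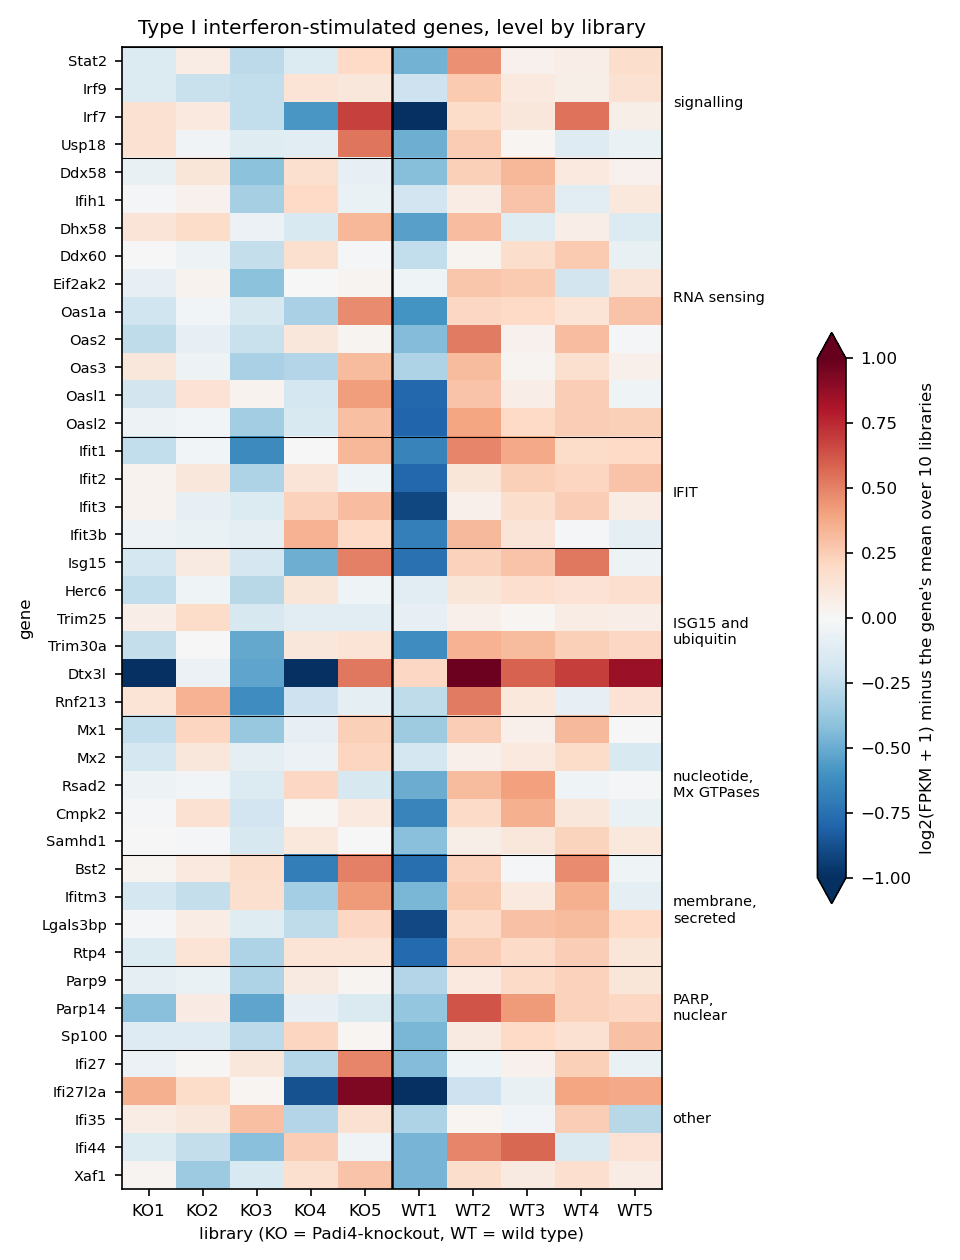
Each cell is the log2(FPKM + 1) of a gene (row, grouped by role) in a library (column, KO left of the line, WT right) minus the gene's mean over the 10 libraries, in blue where lower and red where higher, with the colours ending at -1 and 1. The WT1 column is blue for nearly all genes, the other WT columns are mostly red, and Dtx3l has the darkest blue cells in KO1 and KO4.

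**Figure D3:**
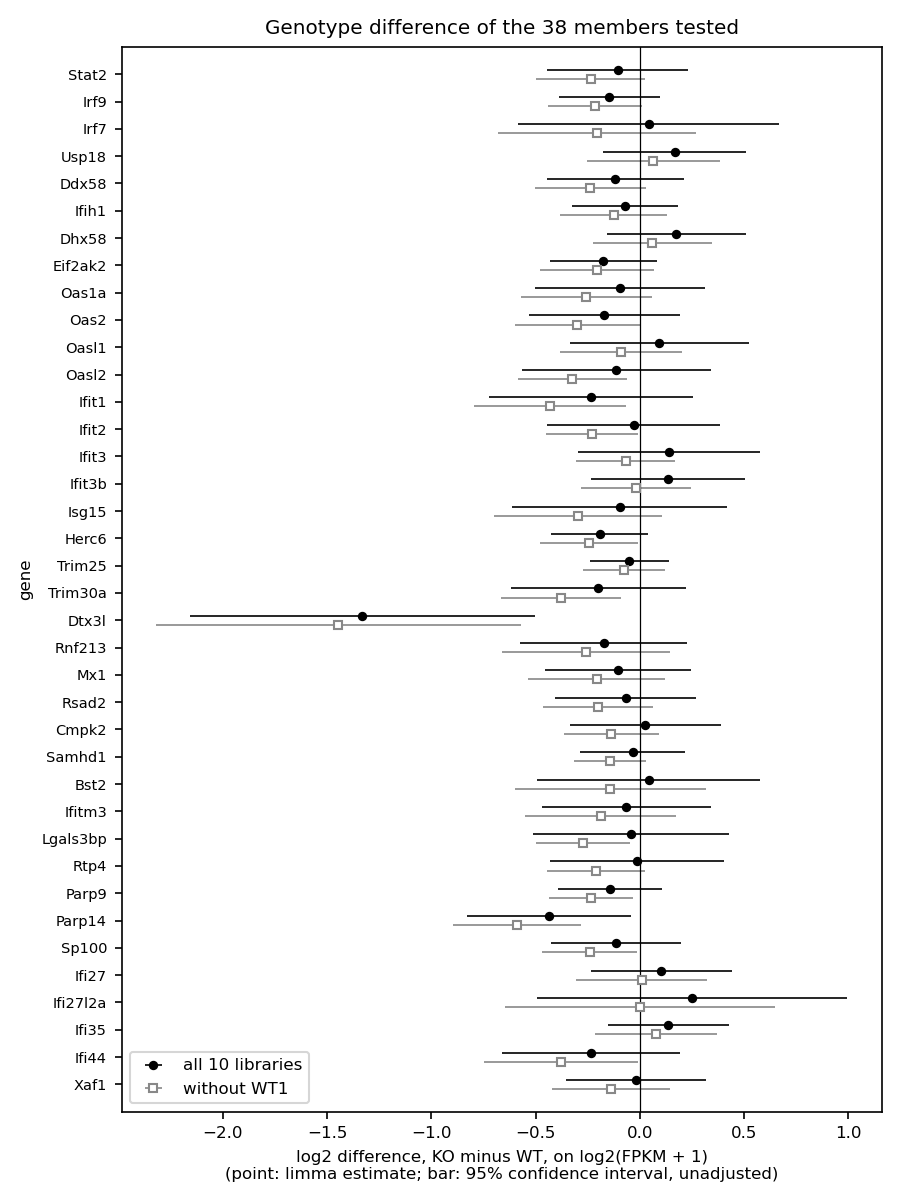
Points show the log2 difference, KO minus WT, of the 38 tested genes on log2(FPKM + 1), with 95% confidence intervals from limma, for all 10 libraries (black circles) and without WT1 (grey squares). The intervals of all genes but Dtx3l (-1.33) and Parp14 (-0.44) include 0 with all libraries, and the points without WT1 lie to the left of those with it.

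Of the 4 signalling genes, 2 had lower and 2 had higher values in KO, with a median log2 difference of -0.03 with all libraries and -0.21 without WT1. Irf9, the DNA-binding subunit of ISGF3, measured 9.80, 9.20, 9.03, 12.1 and 11.9 FPKM in KO1 to KO5, against 9.31, 13.2, 11.8, 11.4 and 12.2 FPKM in WT1 to WT5. KO2 and KO3 lay below every WT library, and KO4 and KO5 lay among the WT values. Irf7, the transcription factor that amplifies interferon production, measured 13.5, 13.0, 9.98, 7.69 and 20.0 FPKM in KO1 to KO5, against 5.45, 13.8, 13.1, 18.0 and 12.6 FPKM in WT1 to WT5. Both extremes were single libraries, KO5 high and WT1 low, and KO4 was the second lowest of all. The log2 differences were -0.15 (SE 0.11) for Irf9 and 0.04 (SE 0.29) for Irf7, with adjusted p-values of 0.976 and 0.996. Without WT1, Irf7 changed sign to -0.20, and without KO5 it was -0.12, so its direction rests on single libraries. Stat2, the STAT that is specific to type I and III interferons, measured 6.15, 7.28, 5.55, 6.15 and 8.02 FPKM in KO1 to KO5, against 4.67, 9.78, 7.08, 7.21 and 7.88 FPKM in WT1 to WT5. WT1 was the lowest and WT2 the highest, with a log2 difference of -0.11, and -0.24 without WT1. Usp18, the protease that removes ISG15 and dampens the receptor, measured 3.40, 2.87, 2.65, 2.67 and 4.75 FPKM in KO1 to KO5, against 1.82, 3.72, 3.03, 2.63 and 2.78 FPKM in WT1 to WT5. KO5 was the highest and WT1 the lowest, and Usp18 (log2 difference 0.17) was among the 5 members whose values were higher in KO with and without WT1.

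Among the sensors and effectors of double-stranded RNA, 8 of 10 genes were tested, of which 6 had lower and 2 had higher values in KO. Their median log2 difference was -0.10 with all libraries and -0.22 without WT1. Ddx58, which encodes the cytosolic RNA sensor RIG-I, measured 11.8, 13.6, 9.09, 14.0 and 11.7 FPKM in KO1 to KO5, against 9.01, 14.8, 15.9, 13.4 and 12.8 FPKM in WT1 to WT5. KO3 and WT1 were the lowest and nearly equal, and the other libraries of both groups overlapped. Eif2ak2, which encodes PKR, the kinase that halts translation, measured 7.62, 8.34, 5.88, 8.10 and 8.28 FPKM in KO1 to KO5, against 7.88, 10.1, 9.93, 7.02 and 8.97 FPKM in WT1 to WT5. KO3 lay well under the other KO libraries, which were close to each other, and WT4 was lower than 4 of the 5 KO libraries. Log2 differences came to -0.12 (SE 0.15) for Ddx58 and -0.17 (SE 0.12) for Eif2ak2, both with an adjusted p of 0.976. Ifih1, which encodes the sensor MDA5, averaged 5.60 ± 0.862 FPKM in KO and 5.93 ± 0.903 FPKM in WT kidneys, and Dhx58, which encodes their regulator LGP2, averaged 2.71 ± 0.495 FPKM in KO and 2.32 ± 0.702 FPKM in WT kidneys (SD, n = 5 each). The log2 differences with and without WT1 were -0.07 and -0.13 for Ifih1 and 0.18 and 0.06 for Dhx58.

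The oligoadenylate synthetase genes, whose products activate the RNA-cleaving enzyme RNase L, lie in a cluster on chromosome 5, with the related Oasl1 and Oasl2 elsewhere on it. Oas1a measured 6.37, 7.33, 6.57, 5.78 and 10.8 FPKM in KO1 to KO5, against 4.62, 8.78, 8.74, 8.34 and 9.34 FPKM in WT1 to WT5. WT2 to WT5 lay close together, WT1 and 4 KO libraries were below them, and KO5 was above. Oas2 averaged 1.37 ± 0.263 FPKM in KO and 1.71 ± 0.660 FPKM in WT kidneys, and Oas3 averaged 0.863 ± 0.355 FPKM in KO and 0.981 ± 0.302 FPKM in WT kidneys (SD, n = 5 each). The log2 differences of Oas1a were -0.10 with WT1 and -0.26 without it, and those of Oas2 -0.17 and -0.30. Of the 50-base stretches of the Oas1a transcripts, 57.6% also occur in Oas1g, so its level is uncertain. Oasl1, which in mice restrains IRF7 translation, averaged 4.13 ± 0.917 FPKM in KO and 3.90 ± 1.26 FPKM in WT kidneys, with log2 differences of 0.09 with WT1 and -0.09 without it. Oasl2 averaged 6.90 ± 1.32 FPKM in KO and 7.78 ± 2.34 FPKM in WT kidneys (SD, n = 5 each). It measured 3.69 FPKM in WT1 and 8.32 to 9.67 FPKM in the other WT libraries, and 4 of the 5 KO libraries lay between. Without WT1 its log2 difference was -0.32 (unadjusted p = 0.0193, adjusted p = 0.727 by limma). The helicase gene Ddx60 averaged 0.711 ± 0.165 FPKM in KO and 0.787 ± 0.244 FPKM in WT kidneys (SD, n = 5 each), with its lowest value in WT1 and its highest in WT4.

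The IFIT genes, a cluster on chromosome 19 whose proteins bind viral RNA that lacks host cap methylation, had 2 members with lower and 2 with higher values in KO, and 4 with lower values once WT1 was left out. Ifit3 measured 27.0, 24.9, 23.9, 31.0 and 32.8 FPKM in KO1 to KO5, against 13.6, 27.4, 30.0, 31.4 and 27.9 FPKM in WT1 to WT5. All libraries but WT1 fell within 23.9 to 32.8 FPKM, and KO and WT libraries were interspersed. Ifit2 measured 15.3, 16.1, 11.8, 16.3 and 14.4 FPKM in KO1 to KO5, against 8.19, 16.2, 17.6, 17.3 and 18.3 FPKM in WT1 to WT5. WT1 was again far below the rest, and KO3 was next. Ifit1 measured 6.09, 7.25, 4.41, 7.42 and 9.57 FPKM in KO1 to KO5, against 4.30, 10.8, 9.95, 8.58 and 8.67 FPKM in WT1 to WT5. Here KO3 was nearly as low as WT1, and without WT1 only KO5 reached the WT range. On the log2 scale KO differed from WT by 0.14 (SE 0.20), -0.03 (SE 0.19) and -0.23 (SE 0.22) for Ifit3, Ifit2 and Ifit1, with adjusted p-values of 0.976, 0.996 and 0.976. Without WT1 the differences were -0.07, -0.23 and -0.43, so that Ifit3 changed sign. Ifit3b averaged 8.13 ± 1.28 FPKM in KO and 7.47 ± 2.01 FPKM in WT kidneys (SD, n = 5 each), and since 51.2% of the 50-base stretches of Ifit3 also occur in Ifit3b and 45.0% of the other gene's in Ifit3, the split of reads between them is uncertain.

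Isg15, the ubiquitin-like modifier, and the ubiquitin and ISG15 ligases had the lowest group median, with lower values in KO for all 6 and a median log2 difference of -0.18. Isg15 measured 12.1, 14.7, 12.2, 9.52 and 19.9 FPKM in KO1 to KO5, against 7.81, 16.3, 17.0, 20.3 and 13.3 FPKM in WT1 to WT5. KO5 and WT4 were the highest and nearly equal, WT1 and KO4 were the lowest, and the groups overlapped throughout. Trim25, the ligase that activates RIG-I, was the steadiest member and measured 24.7, 26.7, 20.9, 21.7 and 21.7 FPKM in KO1 to KO5, against 22.1, 24.3, 23.8, 24.8 and 24.7 FPKM in WT1 to WT5. Its highest library was KO2 and its lowest KO3, so the KO range enclosed the WT range. KO minus WT was, on the log2 scale, -0.10 (SE 0.24) for Isg15 and -0.05 (SE 0.09) for Trim25, with adjusted p-values of 0.981 and 0.976. The sign for Isg15 turned without KO4 (0.01) or WT4 (0.02). Herc6, the main ISG15 ligase in mice, averaged 1.35 ± 0.269 FPKM in KO and 1.67 ± 0.211 FPKM in WT kidneys, with 23.8% of its 50-base stretches shared with an overlapping transcript model, Gm45193. Rnf213, a very large ligase, averaged 10.0 ± 2.69 FPKM in KO and 11.3 ± 2.55 FPKM in WT kidneys (SD, n = 5 each), with log2 differences of -0.17 with WT1 and -0.26 without it, while those of Herc6 were -0.19 and -0.25. Trim30a, an antiviral TRIM ligase gene, measured 6.06, 7.34, 4.84, 8.03 and 8.19 FPKM in KO1 to KO5, against 4.43, 9.63, 9.40, 8.85 and 8.61 FPKM in WT1 to WT5. WT1 was below every KO library and the other WT libraries were above all of them, with a log2 difference of -0.20 with WT1 and -0.38 without it.

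Dtx3l, a ubiquitin ligase that acts as a dimer with PARP9, had the largest difference of the 41 genes and the widest spread. It lies at chr16:35926511-35939151 on the minus strand (GRCm38). It measured 1.18, 5.87, 3.97, 1.46 and 9.32 FPKM in KO1 to KO5, against 7.27, 13.1, 9.82, 10.6 and 12.0 FPKM in WT1 to WT5. These values rest on 107, 550, 378, 129 and 886 reads in KO1 to KO5, against 564, 1180, 938, 974 and 1118 reads in WT1 to WT5. KO1 and KO4 were far below every other library, KO2 and KO3 were intermediate, and KO5 was above WT1 and close to WT3. The log2 difference was -1.33 (SE 0.38), with an unadjusted p of 0.00442 and an adjusted p of 0.976 by limma with Benjamini-Hochberg adjustment. Among 13435 genes it ranked 31 by p and 7 by size of difference. Without WT1 the log2 difference was -1.45, with an adjusted p of 0.597, and every KO library was below WT2 to WT5.

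The spread of Dtx3l lay in the KO group. Its SD of log2(FPKM + 1) was 0.96 over the KO libraries and 0.30 over the WT libraries, and 60 of all genes tested (0.447%) had a larger SD over the KO libraries. KO1 and KO4, so low for Dtx3l, were not the lowest KO libraries for most of the other members: KO3 was. Of the 8 other tested genes within 200 kb of Dtx3l, 6 are outside the list and had log2 differences of 0.10 (Dirc2), -0.03 (Hspbap1), -0.18 (Kpna1), 0.02 (Wdr5b), 0.06 (Fam162a) and -0.06 (Ccdc58). Parp9, which starts next to Dtx3l, had 10.9 FPKM in KO1 and 12.5 FPKM in KO4, its highest KO value. The Dtx3l promoter held no ISRE core in the 300 bases searched.

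The PARP genes share this stretch of chromosome 16, and with Sp100 all 3 had lower values in KO, with a median log2 difference of -0.14. Parp9, at chr16:35938470-35972605 on the plus strand, overlaps the Dtx3l gene by 682 bases on the opposite strand, so without a stated strand setting the reads of that overlap cannot be assigned. Its protein reads ADP-ribose and is the partner of DTX3L. Parp9 measured 10.9, 11.1, 9.26, 12.5 and 11.9 FPKM in KO1 to KO5, against 9.34, 12.6, 13.5, 13.9 and 12.8 FPKM in WT1 to WT5. KO3 and WT1 were nearly equal and lowest, and without WT1 every KO library lay below every WT library by a small margin. Parp14, a macrodomain-containing ADP-ribosyltransferase at chr16:35832874-35871544, measured 7.79, 11.4, 7.15, 10.1 and 9.61 FPKM in KO1 to KO5, against 7.96, 17.2, 14.7, 12.7 and 12.5 FPKM in WT1 to WT5. WT1 lay within the KO range, and every other WT library was above all KO libraries. The log2 differences were -0.14 (SE 0.11) for Parp9 and -0.44 (SE 0.18) for Parp14, with unadjusted p-values of 0.239 and 0.0323 and an adjusted p of 0.976 for both by limma. Without WT1 the Parp14 difference was -0.59 (adjusted p = 0.484 by limma), the smallest adjusted p of any member in that comparison. Sp100, a nuclear body protein gene, averaged 5.35 ± 0.823 FPKM in KO and 5.93 ± 1.27 FPKM in WT kidneys (SD, n = 5 each), with a log2 difference of -0.11 with WT1 and -0.24 without it.

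**Figure D4:**
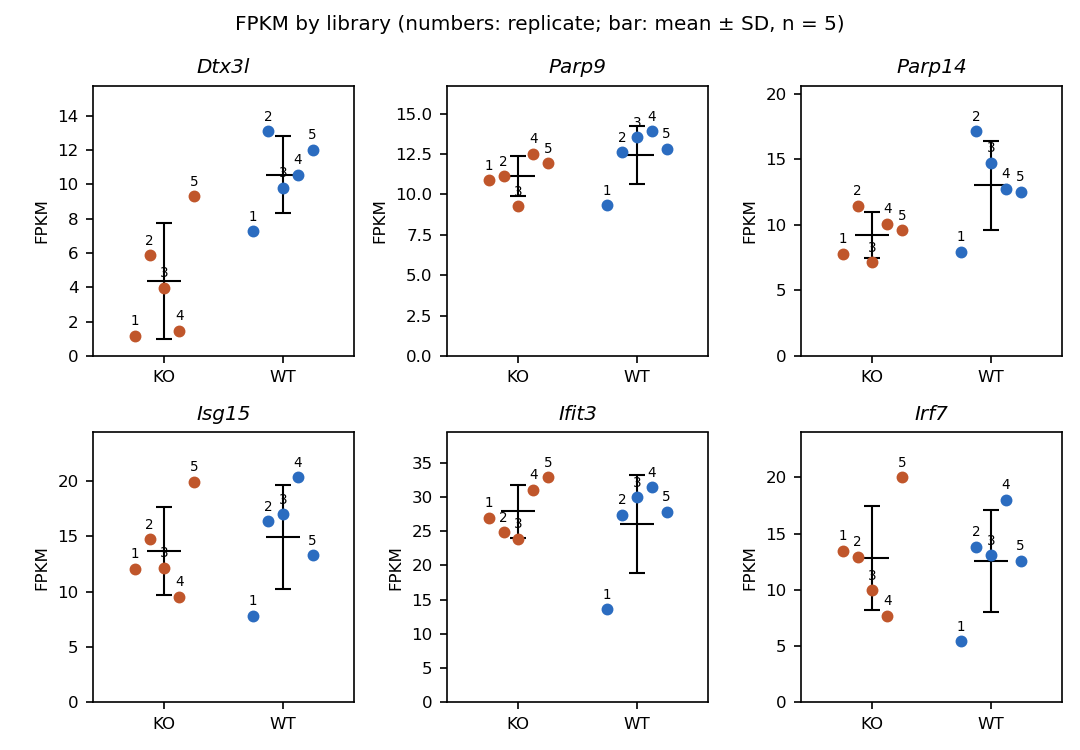
FPKM of 6 members in each library, KO left (orange) and WT right (blue), with the replicate number at each point and the mean ± SD of 5 libraries as a bar; every vertical axis starts at 0. Dtx3l spreads from 1.18 to 9.32 FPKM over the KO libraries while Parp9 stays between 9.26 and 12.5 FPKM there, and WT1 is the lowest WT point in all 6 panels.

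Of the nucleotide enzymes and Mx GTPases, 4 of 5 were tested, of which 3 had lower values and 1 had higher values in KO, with a median log2 difference of -0.05 with all libraries and -0.17 without WT1. Samhd1, which degrades deoxynucleotides, measured 10.6, 10.5, 9.40, 11.5 and 10.6 FPKM in KO1 to KO5, against 7.71, 11.1, 11.5, 12.6 and 11.5 FPKM in WT1 to WT5. WT1 was the lowest, the other libraries spanned 9.40 to 12.6 FPKM, and the groups overlapped. Rsad2, which encodes viperin, a maker of a chain-terminating nucleotide, measured 9.37, 9.52, 8.78, 11.4 and 8.60 FPKM in KO1 to KO5, against 6.62, 12.4, 13.3, 9.41 and 9.63 FPKM in WT1 to WT5. WT2 and WT3 were above all KO libraries, and WT1 was below all of them. Mx1, a GTPase that traps viral ribonucleoproteins, measured 0.981, 1.73, 0.810, 1.22 and 1.77 FPKM in KO1 to KO5, against 0.838, 1.78, 1.44, 1.94 and 1.35 FPKM in WT1 to WT5. The groups overlapped over nearly their whole ranges, on 43 to 118 reads per library. Log2 differences came to -0.03 (SE 0.12), -0.07 (SE 0.16) and -0.10 (SE 0.16) for Samhd1, Rsad2 and Mx1, with adjusted p-values of 0.990, 0.981 and 0.976. Mx2, annotated as a polymorphic pseudogene, averaged 0.685 ± 0.191 FPKM in KO and 0.690 ± 0.183 FPKM in WT kidneys (SD, n = 5 each). Cmpk2, the mitochondrial nucleotide kinase gene next to Rsad2 on chromosome 12, averaged 6.88 ± 0.696 FPKM in KO and 6.93 ± 1.92 FPKM in WT kidneys (SD, n = 5 each). The log2 difference of Cmpk2 was 0.03 with WT1 and -0.14 without it.

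The membrane and secreted products included the highest levels per length, with lower values in KO for 3 of 4 genes and a median log2 difference of -0.03 with all libraries and -0.20 without WT1. Ifitm3, which blocks fusion of viruses with endosomes, averaged 187 FPKM over the 10 libraries, Lgals3bp 72.2, Bst2 59.1 and Ifi27l2a 57.0 FPKM, and these were the 4 members over 50 FPKM. Ifitm3 measured 163, 156, 205, 145 and 247 FPKM in KO1 to KO5, against 133, 220.5, 196, 235 and 171 FPKM in WT1 to WT5. KO5 was the highest and WT1 the lowest, with the other libraries of both groups mixed, and 10.0% of its 50-base stretches occur in other genes. Lgals3bp, a secreted galectin-binding glycoprotein gene, measured 69.7, 74.3, 64.6, 58.9 and 81.3 FPKM in KO1 to KO5, against 37.3, 80.6, 86.5, 87.9 and 81.0 FPKM in WT1 to WT5. WT1 was far below all others, while WT2 to WT5 lay within a narrow range that only KO5 reached. On the log2 scale KO differed from WT by -0.06 (SE 0.19) for Ifitm3 and -0.04 (SE 0.21) for Lgals3bp, with adjusted p-values of 0.986 and 0.994, and without WT1 by -0.19 and -0.27. Bst2, which encodes tetherin and holds budding virus at the membrane, measured 58.2, 60.9, 64.4, 34.8 and 81.0 FPKM in KO1 to KO5, against 33.4, 67.2, 56.5, 79.3 and 55.2 FPKM in WT1 to WT5. KO4 and WT1 were far below the rest and nearly equal, and KO5 and WT4 were the highest. Bst2 had a log2 difference of 0.04, and -0.14 without WT1. The chaperone gene Rtp4 averaged 9.81 ± 1.47 FPKM in KO and 10.2 ± 2.77 FPKM in WT kidneys (SD, n = 5 each), with 13.6% of its 50-base stretches shared with the overlapping model Gm45338. Its log2 difference was -0.01 with WT1 and -0.21 without it.

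The remaining small interferon-induced genes were the only group with a median above 0 with all libraries (0.10) other than the IFIT genes (0.05). Ifi27, a mitochondrial protein gene, measured 42.5, 44.7, 48.2, 36.2 and 62.6 FPKM in KO1 to KO5, against 32.6, 43.1, 45.8, 52.5 and 42.3 FPKM in WT1 to WT5. KO5 was the highest and WT1 the lowest, and 8 libraries lay between 36.2 and 52.5 FPKM. Ifi27l2a, its neighbour on chromosome 12, measured 67.9, 60.2, 53.6, 28.4 and 102 FPKM in KO1 to KO5, against 23.7, 45.5, 50.2, 69.6 and 69.1 FPKM in WT1 to WT5. It varied 4.29-fold over the libraries, with KO4 nearly as low as WT1, and the KO range enclosed the range of WT2 to WT5. Ifi44 measured 3.15, 2.86, 2.41, 4.42 and 3.46 FPKM in KO1 to KO5, against 2.31, 5.39, 5.79, 3.12 and 4.04 FPKM in WT1 to WT5. WT2 and WT3 were the highest, and WT4 and WT5 lay within the KO range. KO minus WT was, on the log2 scale, 0.10 (SE 0.15), 0.25 (SE 0.34) and -0.23 (SE 0.20) for Ifi27, Ifi27l2a and Ifi44, all with an adjusted p of 0.976. Without WT1 the differences were 0.01, 0.00 and -0.38. Ifi35 averaged 12.4 ± 1.92 FPKM in KO and 11.2 ± 1.96 FPKM in WT kidneys, and Xaf1, a regulator of apoptosis, averaged 2.65 ± 0.633 FPKM in KO and 2.69 ± 0.612 FPKM in WT kidneys (SD, n = 5 each). With and without WT1 the log2 differences were 0.14 and 0.08 for Ifi35 and -0.02 and -0.14 for Xaf1.

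Genes with and without the ISRE core in the promoter window can be set side by side. WT1 was the lowest of the 10 libraries for 12 of the 15 genes with a core and for 11 of the 16 genes with a promoter but no core. The median log2 difference was -0.10 for the 13 tested genes with a core and -0.05 for the 16 without one, and without WT1 it was -0.21 and -0.22. No test was made of these differences.

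Upstream of the 41 genes, the ligands were at or near the detection limit. Of 21 interferon genes, 18 were listed at 0 in every library, among them Ifnb1 and 13 of the alpha interferons, where 0 reads allow up to 3 reads per library. Ifne had 8 reads, all of them in KO4, and 0 in the other KO and the WT libraries. Ifnz had 3 reads in KO and 1 in WT libraries, and Ifng, the type II interferon gene, had 7 reads in KO and 10 in WT libraries. The receptors and kinases were well expressed, and 7 of 10 had lower and 3 had higher values in KO, with a median log2 difference of -0.05. Without WT1, 9 had lower and 1 had higher values, with a median of -0.11. Of the receptor chains, Ifnar1 averaged 18.9 ± 1.15 FPKM in KO and 20.0 ± 2.33 FPKM in WT kidneys, and Ifnar2 averaged 12.9 ± 1.39 FPKM in KO and 12.5 ± 1.63 FPKM in WT kidneys (SD, n = 5 each). The smallest p-values among them were those of Jak1, at 39.1 ± 3.34 FPKM in KO and 44.8 ± 5.33 FPKM in WT kidneys, and Jak2, at 17.3 ± 3.26 FPKM in KO and 20.4 ± 3.25 FPKM in WT kidneys, both with an adjusted p of 0.976.

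Of 16 genes that sense nucleic acid or induce interferon, 13 had lower and 3 had higher values in KO, with a median log2 difference of -0.10 and 1 at an unadjusted p under 0.05. That gene was Tmem173, which encodes STING, the adaptor of cytosolic DNA sensing, and it measured 14.9, 16.8, 18.6, 18.3 and 20.7 FPKM in KO1 to KO5, against 18.0, 30.0, 21.3, 23.0 and 21.0 FPKM in WT1 to WT5. WT2 stood above the rest, and KO1 and KO2 were the lowest, with a log2 difference of -0.32 (SE 0.13) and an adjusted p of 0.976 by limma. Without WT1, the 16 genes had a median of -0.18, again with 13 lower and 3 higher. An unadjusted p under 0.05 by limma was then reached by 5 of them, beside 916 of all 13435 genes, with either direction. For 2 of the 16, Tmem173 among them, every KO library was below WT2 to WT5, beside 1.41% of all genes. Irf1, a transcription factor induced by both interferon types, averaged 14.1 ± 0.656 FPKM in KO and 16.6 ± 2.97 FPKM in WT kidneys, with log2 differences of -0.20 with WT1 and -0.31 without it. A list of brakes on the pathway had 7 tested genes, of which 6 had lower and 1 had higher values in KO. Their median was -0.06, and Trex1 was listed at 0. The list also holds Isg20, an antiviral exonuclease gene and not a brake, and the counts and medians include it. Without WT1, 5 of these 7 genes had lower and 2 had higher values, with a median of -0.09. Adar, the RNA editor that prevents sensing of cellular RNA, averaged 5.98 ± 0.806 FPKM in KO and 7.17 ± 1.10 FPKM in WT kidneys, and the phosphatase gene Ptpn2 averaged 10.1 ± 1.49 FPKM in KO and 11.1 ± 1.55 FPKM in WT kidneys (SD, n = 5 each), both with an adjusted p of 0.976.

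Other interferon targets had medians like that of the 41 genes. Of 35 tested, 29 had lower and 6 had higher values in KO, with a median log2 difference of -0.07 with all libraries and -0.21 without WT1, against -0.07 and -0.21 for the members. Cd274, which encodes PD-L1, averaged 2.27 ± 0.385 FPKM in KO and 3.06 ± 0.742 FPKM in WT kidneys, and Nlrc5, the activator of MHC class I genes, averaged 2.05 ± 0.295 FPKM in KO and 2.93 ± 0.900 FPKM in WT kidneys (SD, n = 5 each), with unadjusted p-values of 0.0459 and 0.0497 and an adjusted p of 0.976 for both by limma. The GBP and IRG GTPases, which respond most to interferon-gamma, had lower values in KO for all 14 tested, with a median of -0.37 with all libraries and -0.51 without WT1. Every KO library was below WT2 to WT5 for 12 of these 14 GTPases and for 4 of the 38 members, beside 1.41% of all genes. None of the 14 passed the adjusted threshold with or without WT1. At an unadjusted p under 0.05 there were 3 with WT1 and 14 without it, all with lower values in KO. Beside them, 269 of all 13435 genes (2.0%) with WT1 and 447 (3.33%) without it had lower values at that level. Gbp7 measured 7.82, 8.86, 5.70, 8.86 and 8.66 FPKM in KO1 to KO5, against 10.4, 13.4, 10.4, 9.37 and 12.3 FPKM in WT1 to WT5. Every KO library was below every WT library, including WT1, with a log2 difference of -0.44 (SE 0.13) and an adjusted p of 0.976. The 11 T and NK cell markers, none of them at 0, summed to 11.3 to 16.0 FPKM in KO1 to KO5, 9.65 FPKM in WT1 and 21.1 to 37.8 FPKM in WT2 to WT5. The part of these cells in the GTPase and member values was not tested, and neither was the difference between the lists.

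**Figure D5:**
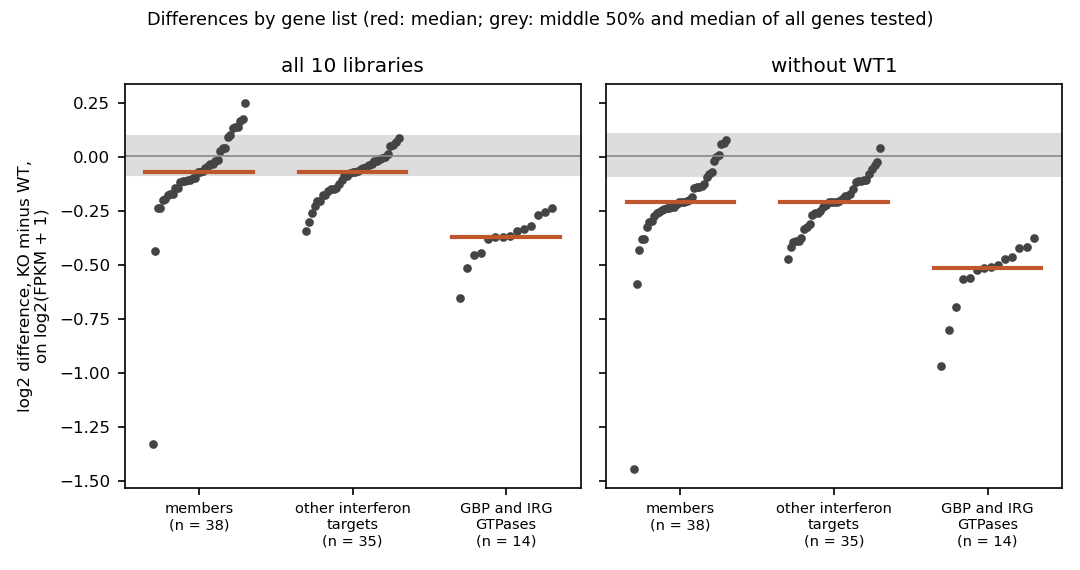
Each point is the log2 difference, KO minus WT on log2(FPKM + 1), of a tested gene, for the 38 members, 35 other interferon targets and 14 GBP and IRG GTPases, with all libraries (left) and without WT1 (right); red lines are medians and the grey band and line are the middle 50% and the median of all 13435 genes. The medians are -0.07, -0.07 and -0.37 on the left and -0.21, -0.21 and -0.51 on the right.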

How the data were processed

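The 10 libraries were grouped as KO or WT from their labels. TRIzol-extracted RNA was used for mRNA libraries, per the labels' protocols, and HISAT2 2.0.5 was the aligner, per the submitters' processing notes. The sources used here do not give the counter, its strand setting, the annotation or the build. Coordinates of all 41 members equal those of GENCODE M21 on GRCm38. No unit stands in the file header. The deposited values were taken to be FPKM computed by the authors, since value times gene length divided by 1 step per library gave whole reads (within 0.01) for 100% of values above 0. The library totals implied by these steps follow the size factors of a median-of-ratios scaling, so the deposited FPKM are already scaled between libraries.

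Here log2(FPKM + 1) of 13435 genes (mean 1 FPKM or more) was tested with limma 3.58.1 (R 4.3.3) with a variance trend and genotype as the only term, and p-values were Benjamini-Hochberg adjusted over these genes at 0.05. The log2 scale with a pseudocount of 1 understates differences of low genes. Recovered reads, 15002922 to 16886945 per library, were used with limma-voom as an alternative. DESeq2 and edgeR, named in the design for raw counts, were not run, since the table holds FPKM. The fit was tested on simulated data. No 2 libraries agreed within sampling noise (lowest chi-square per gene 9.98). Replicate numbers were not taken to pair the libraries, though the correlations given below cannot exclude a pairing.

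The members and lists were chosen with earlier results of these data known, so no test over a list was made. Members given in every library are, per role, the 2 with the highest mean and the one with the smallest p, and the 5 with the largest difference. Stat2, Usp18, Oas1a, Trim30a and Bst2 are also given in every library, chosen after their values were seen. Of each other list, up to 2 genes with the smallest p are named. Dtx3l's neighbours, Ifnar1 and Ifnar2 were named for their place or role. Promoters were searched in RefSeq (GRCm38.p6), and 50-base stretches in the GENCODE M21 transcripts.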

Additional observations from a re-analysis of the deposited data

Results flagged for a closer look

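In 14 of 82 groups of 5 libraries (41 genes in KO and in WT), 1 library lay far from the other 4, with a gap to its nearest neighbour above Dixon's 95% limit for 5 values. Chance gives about 1 in 20, or 4.1 groups, and the members vary together, so these are not 14 separate observations. No share over all genes is given here for this rule, so the count is not shown to be particular to the members. In 13 of the 14 the library was WT1, each time low. Its values were 4.62 FPKM for Oas1a, 3.69 FPKM for Oasl2, 4.30 FPKM for Ifit1, 8.19 FPKM for Ifit2 and 13.6 FPKM for Ifit3. They were 1.30 FPKM for Herc6, 4.43 FPKM for Trim30a, 7.71 FPKM for Samhd1, 37.3 FPKM for Lgals3bp and 5.30 FPKM for Rtp4. Parp9 had 9.34 FPKM there, Sp100 3.78 FPKM and Xaf1 1.62 FPKM. WT1 also had the lowest macrophage marker sum (585 FPKM) and the highest proximal tubule sum (17406 FPKM), and their part in these values was not tested. The other case was Eif2ak2 in KO3, at 5.88 FPKM. Dtx3l was not among the 14.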

How the results depend on the processing

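No gene and no member passed the threshold under any alternative run: a pseudocount of 0.1, no filter on low values, a mean of at least 5 FPKM, upper quartile or total read scaling, limma-voom on recovered reads, a threshold of 0.1, the replicate block and each library left out. The median log2 difference over members was -0.05 to -0.08 under the settings that kept all libraries, and all genes shifted by -0.01 under upper quartile and 0.02 under total read scaling. Leaving out 1 library gave medians from -0.21 (without WT1) to -0.03 (without WT2 or KO3), and 20 (without WT4) to 33 (without WT1) members with lower values in KO. Of the 20 members named by the rule, 9 changed sign when 1 library was left out, and of the other members Oasl1, Ifit3b, Cmpk2 and Bst2 did so without WT1. Irf7 ranged from -0.20 (without WT1) to 0.19, Ifit3 from -0.068 (without WT1) to 0.22 and Ifi27 from -0.0043 (without KO5) to 0.19. Ifit2 ranged from -0.23 to 0.044, Samhd1 from -0.14 to 0.017, Isg15 from -0.30 to 0.022, Ifitm3 from -0.19 to 0.017, Lgals3bp from -0.27 to 0.031 and Rsad2 from -0.20 to 0.026, each lowest without WT1. The cause was not tested. Dtx3l stayed between -1.63 and -1.07 and Parp14 between -0.59 and -0.33. With the replicate number as a block, no gene was called and 2 members had an unadjusted p under 0.05, with a median of -0.07. Same-numbered libraries did not deviate together (correlations -0.34 to 0.31), so the numbers are not taken to pair them. DESeq2 and edgeR were not run. Genes under 1 FPKM, such as Mx2, rest on as few as 24 reads per library.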

Other observations

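The p200 family, nuclear and cytosolic DNA-binding proteins encoded in a cluster on chromosome 1, had low to moderate levels. Ifi207 averaged 7.19 ± 1.50 FPKM in KO and 8.75 ± 2.57 FPKM in WT kidneys, and Ifi204 averaged 6.98 ± 1.41 FPKM in KO and 7.33 ± 2.13 FPKM in WT kidneys (SD, n = 5 each). Ifi209 measured 3.60, 4.55, 3.59, 5.78 and 4.98 FPKM in KO1 to KO5, against 2.41, 5.74, 5.85, 5.50 and 7.58 FPKM in WT1 to WT5. As in most of the antiviral genes, WT1 was the lowest library, and of the KO libraries KO4 lay within the range of WT2 to WT5, while the others lay below it. Its log2 difference was -0.18 with WT1 and -0.39 without it, with adjusted p-values of 0.976 and 0.726 by limma. Ly6e, a membrane protein gene that limits entry of coronaviruses, had the highest level of the other interferon targets, at 229 ± 24.7 FPKM in KO and 254 ± 50.6 FPKM in WT kidneys (SD, n = 5 each). These genes were chosen after their values were seen.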
